A study of Mus musculus with 36 samples.

Results

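Older LINE-1 families are the rows of the repeat table that belong to family L1 of class LINE and whose names do not begin with L1Md_, the prefix of the youngest mouse L1 families. There were 126 such families among 1561 repeat families (8.07%), and all 126 passed the filter on low counts that left 1492 repeat families for testing. The members were chosen by name alone. RNA was measured in mouse embryonic fibroblasts (MEF) that carried a doxycycline-inducible dCas9 together with a guide RNA against the major satellite repeat (MSR) of pericentric heterochromatin. In MSR-dCas9-Control cells dCas9 had no effector domain, and in MSR-dCas9-Activator cells it was fused to the transcriptional activator VPR. Both lines were maintained as mixed, hygromycin-selected cell cultures and not as clones. Each line was sampled in 3 replicates before induction, when induced, and at 3, 6, 12 and 24 h from the removal of doxycycline, which gave 36 libraries in 12 groups. The doxycycline dose was 10 ng/ml in both lines, but it was given for 24 h to the Control line and for 6 h to the Activator line. Induction length and effector therefore cannot be told apart at the induced time point or at any later one. The same holds where changes from the uninduced state are compared between the lines.

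LINE-1 elements are retrotransposons that copy themselves through an RNA intermediate with a reverse transcriptase of their own. Only the youngest mouse families still hold elements able to move; the older families are fragmented copies left by L1 elements that were active earlier in rodent or mammalian history, and HAL1 families are derivatives that keep only part of the L1 coding sequence. By name, 33 families belong to rodent lineages (21 Lx families and 12 families named L1_Mus, L1_Mm, L1_Mur, L1_Rod or L1VL), 85 carry the mammalian-wide L1M names, and the other 8 are 6 HAL1 and 2 L1P families. A family count sums the reads of all copies of a family, inside and outside genes, so it does not say which copies were transcribed. Reads of closely related families may have been shared between them. In these bulk samples fewer cells of a type and less RNA per cell cannot be told apart.

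Total counts ran from 35092024 to 71148411 per library, of which 1001626 to 2249655 fell on older L1 families, 2.20 to 3.84% of the total. The mean normalised count of a family ran from 7.30 to 115171, and the 6 families with most counts held 29.4% of all older L1 counts. The fibroblast label was checked on 10 markers: their summed level was between 480060 and 1480200 normalised counts in every library, although Thy1 was near 0. Of 9 fibroblast markers tested, 1 was higher and 1 lower in the Activator line at induction, as were 2.77% and 5.79% of all genes. By 12 h 1 was higher and 4 lower, against 4.49% and 10.4% of all genes, and by 24 h 5 were lower, against 3.31%. Summed levels were 19.5 to 150 for 4 epithelial markers, 148 to 381 for 3 leukocyte markers and 13.9 to 147 for 3 pluripotency markers. None of these 10 markers was called, but a call needed a mean above 100 normalised counts, which among them only Cd68 had (197). Epcam and Adgre1 were not tested. Some low-count markers were higher in the Activator line by adjusted p, and 2 were lower at 3 h. The latter were Nanog (log2 fold change -0.999, edgeR adjusted p = 0.0216) and Krt18 (-1.31, edgeR adjusted p = 0.0392). At 12 h the pluripotency factor Sox2 was at 60.8 ± 13.5 (SD, n = 3) normalised counts in Activator and at 0 in Control libraries, and Pou5f1 at 50.3 ± 28.6 against 2.91 ± 2.69; both passed the adjusted p at every time from induction on. At 12 h the epithelial cadherin Cdh1 was at 104 ± 20.01 against 5.35 ± 1.36 and the leukocyte marker Ptprc at 36.9 ± 15.8 against 0.617 ± 0.538. The other tested epithelial, leukocyte and pluripotency markers did not pass the adjusted p at 12 h. Their log2 fold changes were 0.80 (Krt8), -0.81 (Krt18), -0.18 (Cd68) and -0.44 (Nanog). Cd68 was higher by adjusted p at 24 h (0.71). The part of the marker changes in the results was not tested. Mitochondrially encoded mRNAs took 2.54% ± 0.27 (SD, n = 3) of gene counts in induced Activator libraries and 2.08% ± 0.43 in induced Control libraries, and 2.43% ± 0.47 against 1.68% ± 0.20 at 12 h.

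Before induction the lines did not differ detectably in older L1 RNA. No family was called different between uninduced Activator and Control cells, where 0.067% of all repeat families were called by edgeR and 1 older L1 family had an unadjusted p under 0.05. A family was called at an adjusted p under 0.05 and a log2 fold change beyond 0.5. Induction of dCas9 without an effector was followed by no call either. In the Control line, induced against uninduced, 0 of 126 older L1 families and 0% of all repeat families were called, with 1 older L1 family at an unadjusted p under 0.05.

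After induction of the Activator a minority of families differed, in both directions. At the induced time point 11 families were higher and 3 lower in Activator than in Control cells. That is 11.1% of older L1 families, where 32.5% of all repeat families were called, 20.2% higher and 12.3% lower. At 3 h after removal 21 were higher and 8 lower, or 23.0%, with 46.8% of all repeat families called, 31% higher and 15.8% lower. The 6 h libraries gave 22 higher and 5 lower, or 21.4%, with 45.6% of all repeat families called, 34.4% higher and 11.2% lower. The most calls came at 12 h, 40 higher and 2 lower, or 33.3%, with 51.1% of all repeat families called, 45.4% higher and 5.76% lower. By 24 h 11 were higher and none lower, or 8.73%, with 31.3% of all repeat families called, 29% higher and 2.28% lower. At each of these 5 time points the share called was below that of all repeat families. In all, 48 families (38.1%) were called at 1 or more of the 5 time points, against 65.5% of all repeat families. Of the 48, 40 were called higher and 8 lower, and no family was called in both directions. At none of the 5 were 78 families called. The higher counts at each of the 5 times include L1M2a1, a family that passed the filter only through the Activator libraries. The count at 24 h was set in part by a single library: without Activator 24 h replicate 2, 20 families were higher and 1 lower.

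The direction of these calls depended on the scaling. All counts here were scaled by genes with the TMM method. Scaled instead to the 13 mitochondrially encoded mRNAs, the calls were 6 higher and 37 lower at induction and 4 higher and 1 lower at 24 h. Between these times they were 7 and 67 (3 h), 5 and 72 (6 h), and 5 and 42 (12 h). Over the 13619 genes with a mean raw count above 100, that scaling put the median log2 difference at -0.43 at induction and -0.92 at 12 h. TMM put the median of these genes at -0.07 and -0.26. Over all 28542 genes fitted, the TMM medians were 0.10 and 0.15 at these times. With DESeq2 size factors the split at 3 h was 28 higher to 4 lower and the split at 6 h 38 to 1. By gene library size alone these splits were 13 to 11 and 13 to 7. The ratio between sub-groups of families within a library, which no scaling can alter, is given next.

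Families with rodent-lineage names stood higher than families with L1M names in every Activator time point from induction on. The ratio of summed rodent-lineage counts to summed L1M counts, taken within each library and free of any scaling, was between 1.55 and 1.70 in all 18 Control libraries. In uninduced Activator libraries it was 1.65, 1.60 and 1.72. In induced Activator libraries the ratio was 2.11, 1.88 and 2.30, and 12 h after removal it was 2.29, 2.03 and 2.32. At 24 h it was 2.10, 1.79 and 2.05. All 15 Activator libraries from induction on lay above every Control library, and replicate 2 was the lowest of the 3 at each of these time points. Rodent-lineage families made up 61.2% of older L1 counts in induced Control libraries and 66.9% in induced Activator libraries.

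**Figure D1:**
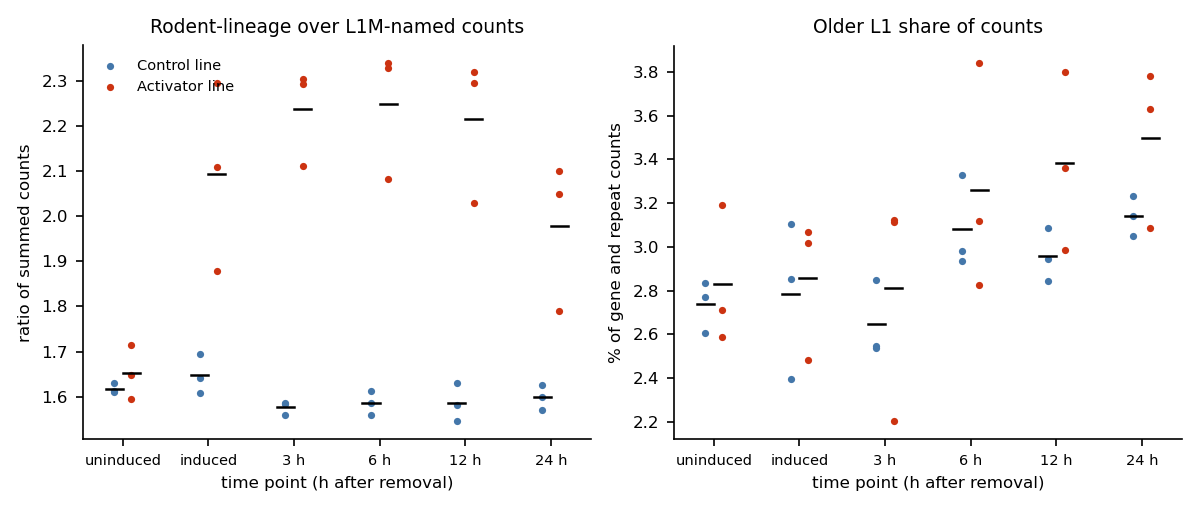
Left, the ratio of summed counts of 33 rodent-lineage families to those of 85 L1M families in each library; right, the percentage of all gene and repeat counts that fell on older L1 families. Points are libraries, black bars are means of 3 replicates, and neither axis starts at 0. The Activator ratios from induction on, 1.79 to 2.34, lie above all Control ratios, 1.55 to 1.70, whereas the shares of the lines overlap at all 6 time points.

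As a share of the whole library the older L1 families separated the lines less well. They took 2.86% ± 0.32 (SD, n = 3) of counts in induced Activator libraries and 2.79% ± 0.36 in induced Control libraries. At 12 h the shares were 3.36, 3.80 and 2.99% in Activator libraries and 3.09, 2.95 and 2.84% in Control libraries, which overlap. The total includes repeat counts, which took 28.5% ± 2.0 (SD, n = 3) of it in Activator and 21.7% ± 0.8 in Control libraries at 12 h. Scaled by genes with TMM, summed older L1 counts at 12 h were 2001900 to 2166200 against 1513400 to 1567300. Such sums, which depend on the scaling, overlapped when induced and at 3 h but not at 6, 12 and 24 h. Within repeat counts, Activator replicate 3 stood apart with 9.77% at 12 h and 10.98% at 24 h, against 13.4 to 13.9% in the Control libraries of those time points. At 12 h its TMM-scaled older L1 sum was 2150600, against 2001900 and 2166200 in replicates 1 and 2. With satellites left out of the repeats its share was 10.8%, against 13.05 and 14.23%. The targeted repeat, GSAT_MM, stood at 335800, 824300 and 2004000 normalised counts in these 3 libraries. When induced, GSAT_MM stood at 151500, 99120 and 1060000, against 1363, 1318 and 1404 in Control libraries.

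The fitted differences gave the same order of sub-groups. The log2 fold change of Activator over Control was above 0 in 33 of 33 rodent-lineage families at induction and at each later time point. Before induction it was already above 0 in 32 of the 33, with a median of 0.05 and no call. At induction 749 of all 1492 repeat families were above 0. The rodent-lineage medians went in order of time from induction through 0.27, 0.40, 0.46, 0.63 and 0.36. Scaled to mitochondrial mRNAs, these medians were -0.09, -0.17, -0.23, -0.02 and 0.09 in that order. Of these 33, the numbers called higher were 4, 12, 14, 25 and 5 in the same order, and none was called lower. Of all repeat families, 20.2, 31, 34.4, 45.4 and 29% were called higher at these times. The shares called lower were 12.3, 15.8, 11.2, 5.76 and 2.28%. At induction the higher calls were 12.1% of the 33, below the share of all repeat families. With mitochondrial scaling 2 of the 33 were higher at each of the first 4 times and 1 at the last, and 2 were lower at 6 h. The count at induction was 11 without Activator induced replicate 2. That at 3 h was 7 and 6 without replicates 1 and 2 of the Activator. That at 24 h was 11 and 8 without replicates 2 and 3 of the Activator and 9 without Control 24 h replicate 3. Families with L1M names had medians of -0.11, -0.10, -0.05, 0.15 and 0.06 at the same times, and their median at 3 h became 0.05 with DESeq2 size factors. Of the 85, 7 were higher and 3 lower at induction, but without Control induced replicate 1 these were 5 and 9, with mitochondrial scaling 4 and 35, and fitted to the compared libraries alone 3 and 1. Then at 3 h 8 were higher and 8 lower, and by 12 h 13 were higher and 2 lower, or 3 and 40 with mitochondrial scaling. The gap between the medians of the sub-groups was 0.37 at induction, then 0.51, 0.50 and 0.48 at the next 3 times, and 0.29 at the last. With mitochondrial scaling the gap had to stay nearly the same, at 0.37 at induction and 0.48 at 12 h, since a scaling shifts all families about alike. Over the fits that left out libraries the gap ran from 0.30 to 0.43 at induction and from 0.26 to 0.36 at 24 h. These medians describe the families and were not tested, since families are not replicates.

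**Figure D2:**
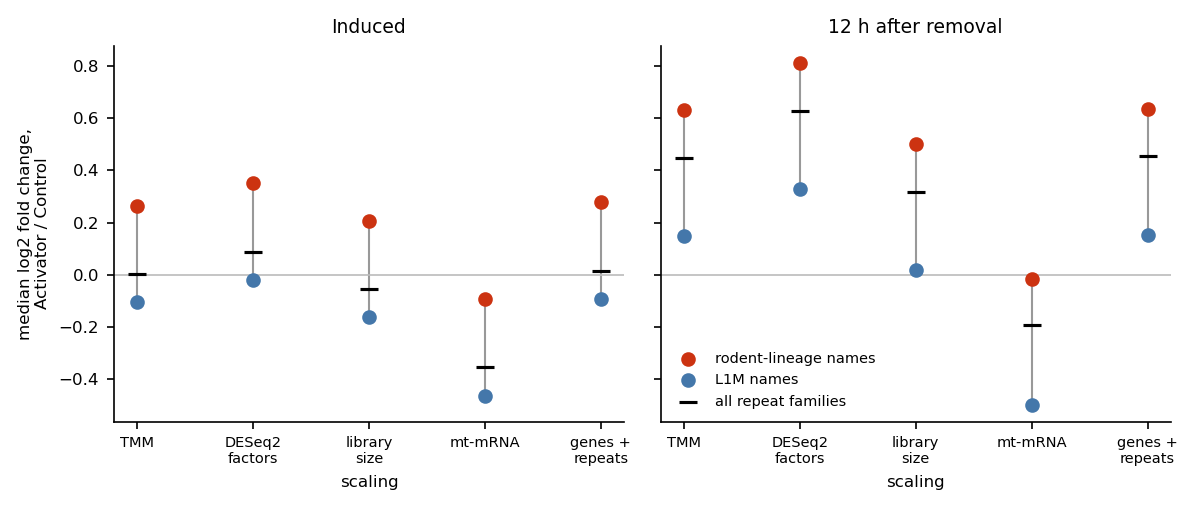
Median log2 fold change, Activator over Control, of rodent-lineage families, L1M families and all 1492 repeat families under 5 scalings, at induction and 12 h after removal. A scaling shifts all families by about the same amount. The distance between the first and second of these, 0.37 at induction, therefore had to stay nearly the same and is no test. All 3 medians move together and fall below 0 when scaled to mitochondrial mRNAs.

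Set beside other LINEs, the older L1 families lay between the youngest L1 and the more ancient LINEs. With TMM scaling, as for all medians of this paragraph unless stated, the 6 L1Md_ families had median log2 fold changes of 0.32 at induction and 1.00 at 12 h. The 24 families of L2, CR1 and RTE, LINE groups that predate L1 activity in rodents, had medians of -0.38 and -0.07. Low medians at induction were not confined to LINEs: the 37 SINE families were at -0.26 and 198 DNA transposon families at -0.29. All repeat families had medians of 0.00 at induction and 0.45 at 12 h, and all older L1 families -0.01 and 0.30. With TMM scaling the difference between the lines was highest at 12 h in 93 of 126 older L1 families (73.8%). The same held in 31 of the 33 rodent-lineage families and in 59.2% of all repeat families. With mitochondrial scaling the medians from induction on were instead highest at 24 h. They were then 0.09 for rodent-lineage families and -0.15 for all older L1 families.

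**Figure D3:**
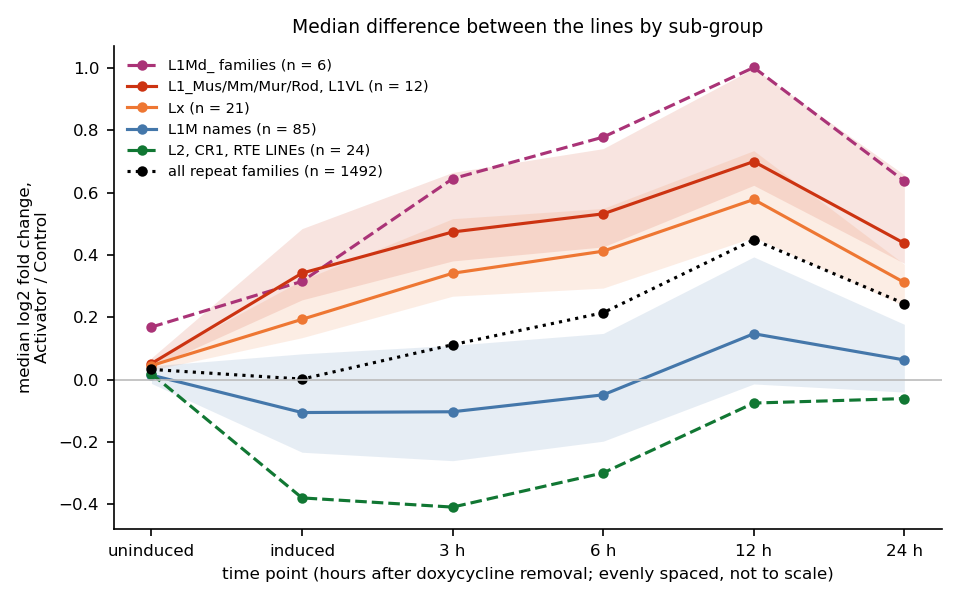
Median log2 fold change, Activator over Control with TMM scaling, at each time point for 3 sub-groups of older L1 families and for other repeats. The sub-groups are the 12 L1_Mus, L1_Mm, L1_Mur, L1_Rod and L1VL families, the Lx families (both rodent-lineage) and the L1M families. Beside them are L1Md_ families, L2, CR1 and RTE LINEs and all repeat families. Shading spans the quartiles of the older L1 sub-groups. The rodent-lineage lines stay above the line of all repeat families from induction to 24 h and the L1M line below it, whereas mitochondrial scaling lowered the rodent-lineage, L1M and all older L1 medians at each time from induction on.

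The sub-groups were not uniform. Among the 12 L1_Mus, L1_Mm, L1_Mur, L1_Rod and L1VL families, the numbers called higher at induction, 12 h and 24 h were 3, 11 and 4. Among the 21 Lx families they were 1, 14 and 1. Of all repeat families, 20.2, 45.4 and 29% were called higher at these times. Within Lx, a split chosen after its values were seen, Lx8, Lx8b, Lx9 and Lx10 had log2 fold changes of 0.32 to 0.46 at 12 h, and the other 17 Lx families 0.37 to 1.10. In the L1M series the sub-groups L1MB, L1MC and L1MD, together 24 families, had no call at induction, with medians of -0.25, -0.21 and -0.22. The 27 L1ME families had 2 higher and 2 lower, and the 25 families named L1M and a digit had 5 higher and 1 lower. None of the 9 L1MA families was called at induction and 1 was higher at 12 h.

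**Figure D4:**
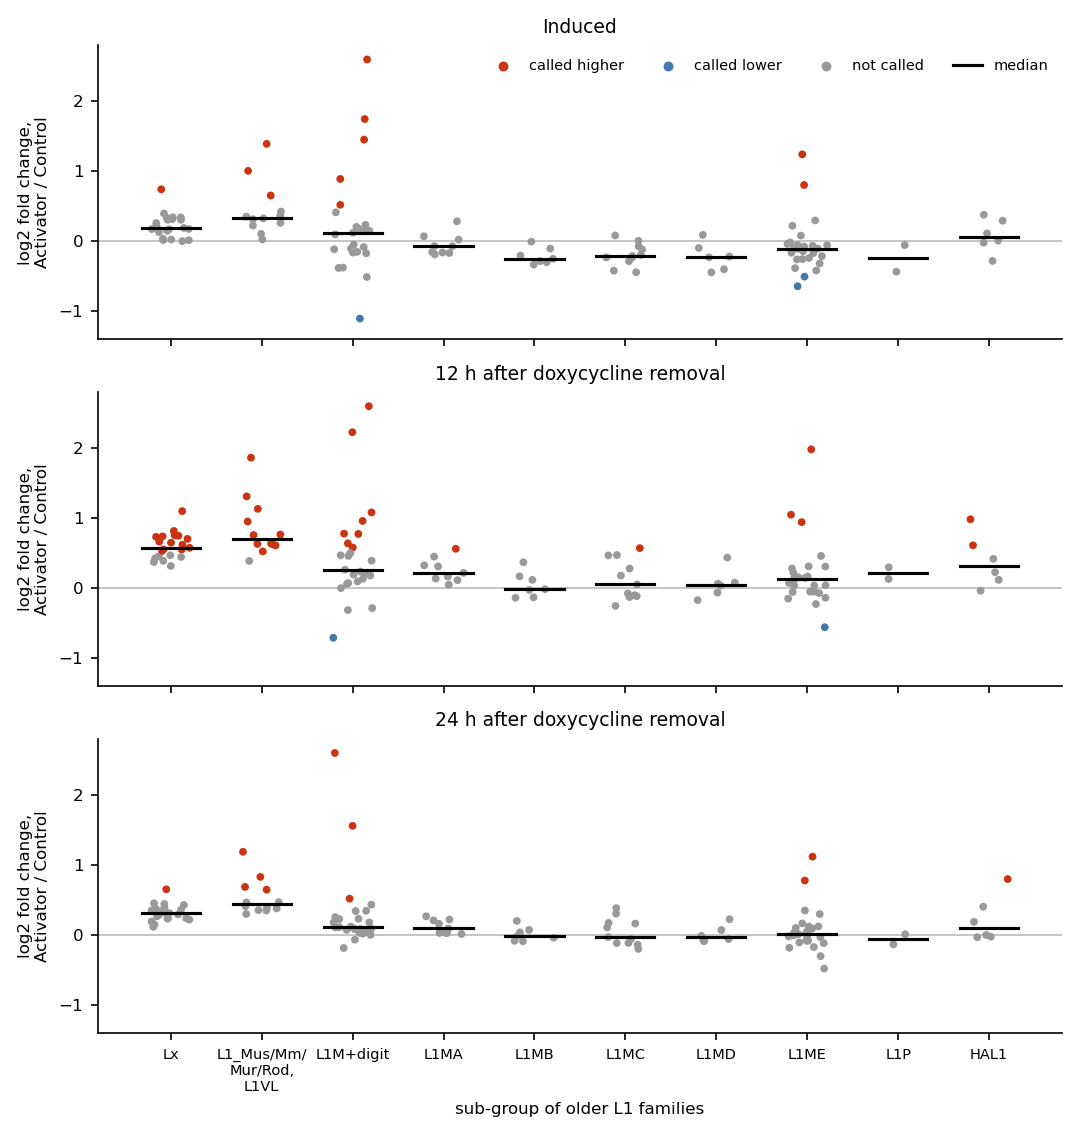
Log2 fold change, Activator over Control with TMM scaling, of each of the 126 older L1 families by sub-group at induction, 12 h and 24 h. Each point is a family, black bars are medians, and values above 2.6 are drawn at 2.6, which applies to L1M2a1. All 33 rodent-lineage families lie above 0 in the 3 panels, although with mitochondrial scaling their medians fell below 0 at induction and 12 h. Before induction, which is not drawn, 32 of the 33 were above 0 too. The called L1M families lie in both directions.

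Among the families with the largest differences, L1VL1, a rodent-lineage family, stood at 7244, 5292 and 11050 normalised counts in the induced Activator libraries and at 2342, 3344 and 3141 in the induced Control libraries. All Activator values lay above all Control values. The log2 fold change was 1.39 ± 0.17 (SE; adjusted p = 2.6e-08), and it was 1.87 ± 0.17 at 12 h and 1.19 ± 0.17 at 24 h. At 24 h the Activator libraries held 9784, 5468 and 7700 and the Control libraries 3295, 3046 and 3737. The related L1VL4 stood at 28560, 17460 and 32320 in induced Activator libraries against 9945, 14960 and 13800 in Control libraries, a log2 fold change of 1.01 ± 0.16 (adjusted p = 1.1e-06). L1VL4 had 31550, 20030 and 24500 counts at 24 h against 13990, 13780 and 14960, still without overlap, at 0.83 ± 0.15. Scaled to mitochondrial mRNAs, the 24 h difference of L1VL4 was 0.56 with an adjusted p of 0.0567, whereas L1VL1 remained called at 0.91.

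Some low-count L1M families were higher too. L1M3c stood at 415, 310 and 474 normalised counts in induced Activator libraries and at 133, 185 and 115 in Control libraries (log2 fold change 1.46 ± 0.20, adjusted p = 5.6e-09). At 12 h L1M3c reached 700, 688 and 798 against 155, 156 and 155, a log2 fold change of 2.23 ± 0.20. At 24 h it stood at 679, 299 and 507 against 160, 140 and 201, with the lowest Activator value in replicate 2. L1ME5 was higher by 0.81 ± 0.23 at induction, with 1.98 ± 0.23 and 1.12 ± 0.22 at the last 2 times, but at induction mitochondrial scaling put L1ME5 at 0.46 with an adjusted p of 0.191. L1MEg1 was higher by 1.25 ± 0.20 at induction, with 1.05 ± 0.20 and 0.78 ± 0.20 at the last 2 times, where mitochondrial scaling put L1MEg1 at 0.42 and 0.50 with adjusted p of 0.165 and 0.176.

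L1M3f differed in its time course. L1M3f stood at 397, 348 and 518 normalised counts in induced Activator libraries against 82.4, 158 and 148 in Control libraries, a log2 fold change of 1.75 ± 0.22 (adjusted p = 6.6e-10). The difference was 0.78 ± 0.21 at 12 h, which mitochondrial scaling reduced to 0.14, and 0.34 ± 0.21 at 24 h (adjusted p = 0.2). Without Activator 24 h replicate 2 the last value was 0.52, which passed the call, and without replicate 1 it was 0.079. The induced and 24 h differences of L1M3f were not compared by a test.

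Among families whose mean normalised count was 100 or more, 8 (6.35% of all older L1 families) were called higher at all 5 time points from induction on, against 17.4% of all repeat families whatever their mean. They were L1VL1, L1VL4, L1_Mur2, Lx2A1, L1M3b, L1M3c, L1ME5 and L1MEg1, of which L1_Mur2, Lx2A1 and L1M3b are named here after their values were seen. No older L1 family was called lower at all 5. L1M2a1, also named after its values were seen, passed the call at all 5 times too, but it was tested only because of its Activator counts. It was close to absent in Control cells: 0 counts in the 3 induced Control libraries together against 14, 2 and 13 counts in the induced Activator libraries, at least 8.66-fold higher when 3 counts over the group are taken as the floor. At 3 h L1M2a1 had 9, 21 and 14 counts against none, at least 12.7-fold higher. Placing it at these bounds left the older L1 medians at those times at the same values.

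**Figure D5:**
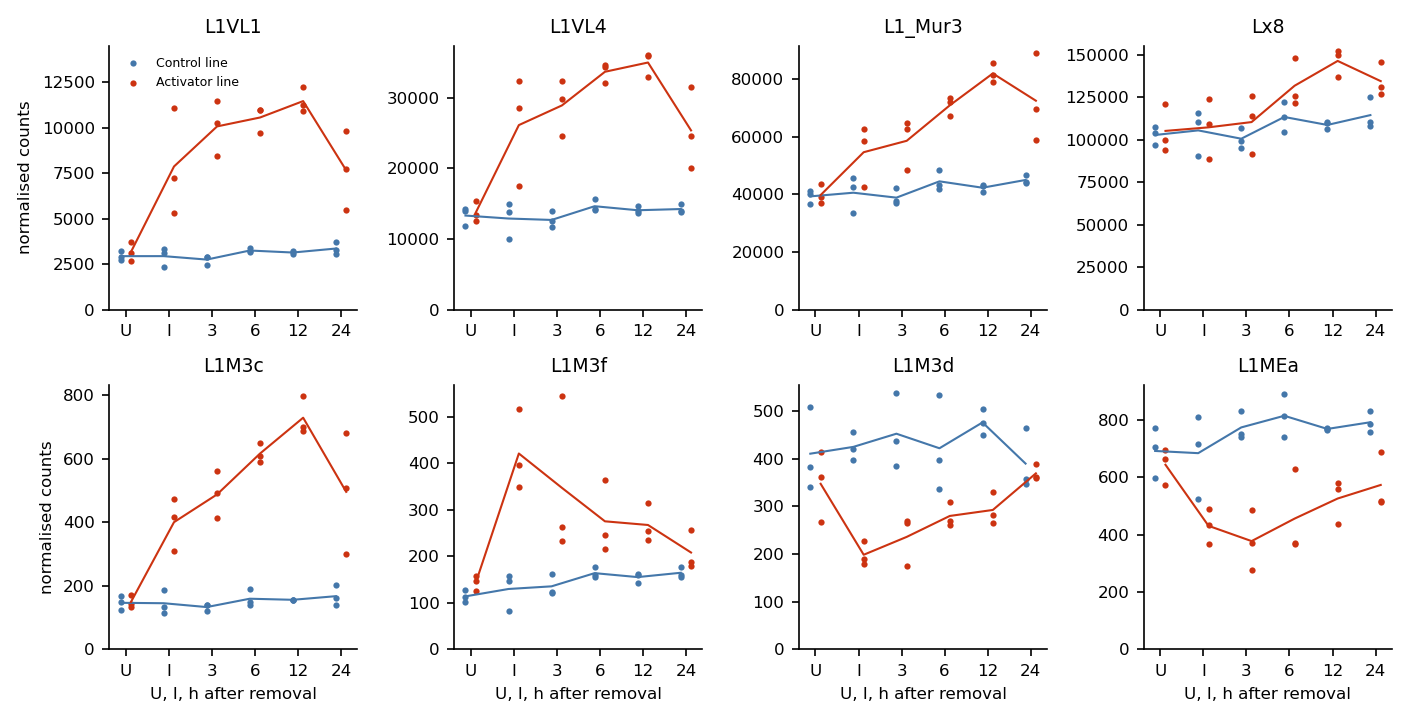
Normalised counts with TMM scaling of 8 older L1 families in each library, uninduced (U), induced (I) and 3, 6, 12 and 24 h after removal. Points are libraries, lines join means of 3 replicates, and all axes start at 0. In induced cells the Activator points lie above the Control points for L1VL1, L1VL4, L1M3c and L1M3f and below them for L1M3d and L1MEa, and for Lx8 they overlap; with mitochondrial scaling the sign of Lx8 turned at induction, 12 h and 24 h.

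Of the 6 families with most counts, L1_Mus3, Lx7, L1_Mus1 and L1_Mur3 were called at 12 h. Lx8, the most abundant, had 109400, 88780 and 124000 normalised counts in induced Activator libraries and 90240, 115900 and 110600 in Control libraries, which overlap. At 12 h Lx8 had 137100, 152400 and 150200 against 110300, 106200 and 109800, without overlap, a log2 fold change of 0.43 ± 0.12 (adjusted p = 0.0014) that stayed under the limit of 0.5. Lx9 was at 0.46 ± 0.12 at 12 h, also under the limit. L1_Mus3 (0.63 ± 0.13), Lx7 (0.53 ± 0.12) and L1_Mus1 (0.53 ± 0.12) were called higher at 12 h but not at 24 h. Scaled to gene library size alone these 3 were at 0.50, 0.40 and 0.39 and lost the call, and the differences of Lx8, Lx9, L1_Mus3, Lx7 and L1_Mus1 at 12 h all turned below 0 with mitochondrial scaling. L1_Mur3 stood at 81420, 78940 and 85370 against 43130, 42940 and 40840 at 12 h, a log2 fold change of 0.95 ± 0.13 (adjusted p = 1.2e-10), and at 0.69 ± 0.13 at 24 h. With mitochondrial scaling L1_Mur3 was at 0.31 and 0.42 at these times and not called. At induction L1_Mur3 was at 0.43, just under the limit, and passed it without Activator induced replicate 2 (0.58) or Control induced replicate 2 (0.54).

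L1M3d, L1MEa and L1ME4a were lower at induction. L1M3d stood at 189, 179 and 227 normalised counts in induced Activator libraries and at 397, 421 and 457 in Control libraries, without overlap (log2 fold change -1.10 ± 0.17, adjusted p = 3.4e-08). L1M3d was still lower at 12 h, at -0.71 ± 0.17, and stood at 388, 361 and 359 against 348, 358 and 464 at 24 h, where the groups overlapped. L1MEa had 490, 368 and 433 counts in induced Activator libraries against 525, 812 and 716 (-0.64 ± 0.16, adjusted p = 0.00049). L1MEa was at -0.56 ± 0.16 at 12 h. Its call at induction was lost without Activator induced replicate 2 (-0.48), and its call at 12 h without replicate 1 of either line at 12 h (-0.48 and -0.50) and with DESeq2 size factors (-0.38). L1ME4a was at -0.50 ± 0.13 at induction, at the limit, and was not called without Control induced replicate 3 (-0.42) or Activator induced replicate 2 (-0.43). Fitted to the compared libraries alone, L1MEa and L1ME4a had adjusted p of 0.0803 and 0.212 at induction. In all, L1M2b, L1M2c, L1M3d, L1M3de, L1MCc, L1MDb, L1MEa and L1ME4a were called lower at 1 or more time points with TMM scaling. They are 6.35% of older L1 families, and at 3 h alone 15.8% of all repeat families were called lower. All 8 carry L1M names, as do 85 of the 126 older L1 families. With mitochondrial scaling 65 L1M and 2 rodent-lineage families were lower at 6 h.

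HAL1, the half-L1 family, stood at 8943, 8186 and 9568 normalised counts in induced Activator libraries and at 9092, 12020 and 11420 in Control libraries, with a log2 fold change of -0.28 ± 0.12 (adjusted p = 0.056). HAL1 was at -0.04 ± 0.12 at 12 h, where DESeq2 size factors put it at 0.14. MusHAL1, its mouse relative, was at 0.30 ± 0.13 at induction and at 0.61 ± 0.13 at 12 h, the latter called, but gene library size alone put MusHAL1 at 0.48 and mitochondrial scaling at -0.04. The difference between HAL1 and MusHAL1 was not tested.

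The induction response itself was tested in the Activator line and against the Control line. In Activator cells, induced against uninduced, 10 older L1 families rose and 2 fell, with 19.6% and 12.4% of all repeat families called in these directions. With mitochondrial scaling 4 were higher and 75 lower, and by gene library size 9 and 7. The change on induction was larger in the Activator than in the Control line for 7 families and smaller for 1, against 11.8% and 9.85% of all repeat families. By gene library size alone these were 5 and 4, with mitochondrial scaling 3 and 5, without Control induced replicate 1 they were 6 and 7, and without Activator uninduced replicate 2 they were 7 and 6. From uninduced to 24 h after removal the change was larger in the Activator line for 8 families and smaller for none, against 19.9% and 0.871%. These 8 became 3 without Activator 24 h replicate 1, and 5 without Control uninduced replicate 2, Control 24 h replicate 1 or Activator uninduced replicate 1. Because these contrasts share libraries with those above, they are not independent of them.

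Genes known to silence or restrict L1 were read beside the families. A gene was called at an adjusted p under 0.05, a log2 fold change beyond 1 and a mean above 100 normalised counts. Of 14 genes listed as L1 silencers, none was called at induction. Setdb1, an H3K9 methyltransferase, was at -0.98 there (edgeR adjusted p = 2.45e-06), just under the limit, and was called lower by gene library size (-1.04) and with mitochondrial scaling (-1.35). At 12 h 1 was higher and 2 lower, against 4.49% and 10.4% of all genes, and at 24 h 2 were higher and 3 lower, against 3.62% and 3.31%. Setdb1 and Hells were lower at 12 h, at -1.72 ± 0.15 and -1.16 ± 0.13, and Setdb1 was called lower at 3 and 6 h too (-1.58 and -1.81). Morc2a, which works with HUSH, was higher at 12 h by 1.19 ± 0.10. Dnmt1, the maintenance DNA methyltransferase, and Uhrf1, which recruits it, were lower at 24 h, at -1.19 ± 0.10 and -1.12 ± 0.10. Hells was still lower then, at -1.065 ± 0.13. Fam208a, a HUSH subunit, and Morc2a were higher at 24 h by 1.04 ± 0.13 and 1.10 ± 0.10. Of 11 restriction factors, the nuclease Trex1 (-1.22 ± 0.26) and Zcchc3 (-1.20 ± 0.21) were lower at induction, where 5.79% of all genes were, Zcchc3 and Apobec3 at 12 h (-1.26 ± 0.21 and -1.29 ± 0.14), and none was called at 24 h. With mitochondrial scaling 0 silencers were higher and 7 lower at 12 h, and 0 and 4 at 24 h. The restriction factors lower with that scaling were 3 at induction, 6 at 12 h and 1 at 24 h, and none was higher, but no called gene of these lists turned its direction. The part of these genes in the L1 results was not tested.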

How the data were processed

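Total RNA libraries (TruSeq Stranded Total RNA, paired-end) of 36 MEF samples were used. The authors used cutadapt for trimming, STAR for alignment (GRCm38) and TEtranscripts for counting; the deposited table holds raw counts per gene and per repeat family. The sharing of multi-mapped reads, the strand setting and the annotation release were not given in the sources used here. The table had 54842 gene rows, 1561 repeat families and 1 row without a name (0.0021 to 0.0045% of counts), which was left out. Library sizes and TMM factors came from gene rows, as the study took size factors from genes, and normalised counts are counts per 42252560 scaled gene counts. The edgeR quasi-likelihood test (edgeR 4.0.16, R 4.3.3, limma 3.58.1) was fitted once to all 1492 repeat families kept by filterByExpr, with 12 groups and the replicate number as a block, as the study's time course design has replicate as a term; p-values were adjusted by Benjamini-Hochberg over all repeat families, and tests are two-sided. Genes (28542) were fitted alike. SEs were obtained from each log2 fold change and its F statistic. Scripts were tested on simulated data.

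The replicate numbers did not meet the rule for paired samples: the deviations of same-numbered libraries from their group means correlated above 0.1 in 15 of 18 pairs over genes (-0.016 to 0.44) and in 10 of 18 over older L1 families (-0.317 to 0.56). No libraries were duplicates (chi-square per degree of freedom 16.1 to 250 over 36 pairs). The study's methods give the 3 replicates of a group as biological replicates. Alternatives were DESeq2 1.42.0, other scalings, filters and limits, and leaving out libraries. Families named are the 6 with most counts, up to 4 largest called rises and falls at induction and at 24 h among families with a mean of at least 100, up to 5 called in the same direction at all 5 later time points, HAL1 and MusHAL1. The families and gene lists were chosen with earlier results of these data known. A Repressor line was not analysed here. No L1 sequences are given because no consensus sequences were used here.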

Additional observations from a re-analysis of the deposited data

Results flagged for a closer look

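For 8 older L1 families the response to induction was not the same in both lines by the interaction term of the edgeR fit. On the log2 scale, Activator change less Control change was 1.44 for L1M3f, 1.43 for L1M3c, 1.29 for L1VL1, 1.07 for L1MEg1, 0.96 for L1VL4, 0.67 for Lx2A1, 0.61 for L1_Mur2 and -0.87 for L1M3d. These were the 8 calls of that contrast among 126 families, and they were taken with the TMM scaling. Of all repeat families, 11.8% were called larger and 9.85% smaller in it. With mitochondrial scaling 3 older L1 families were larger and 5 smaller, and by gene library size 5 and 4.

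The change from uninduced to 24 h after removal differed in 8 families by the same kind of test. The values were 1.53 for L1M3c, 1.08 for L1VL1, 1.02 for HAL1_SS, 0.86 for L1ME5, 0.79 for L1VL4, 0.67 for L1_Mur3, 0.60 for L1_Mur2 and 0.58 for Lx2A1. HAL1_SS rests on few reads: it stood at 133, 70.8 and 58.5 normalised counts in Activator libraries at 24 h and at 53.8, 55.0 and 39.4 in Control libraries, with replicate 1 far above the others. Both contrasts use the uninduced libraries of both lines, and scaled to mitochondrial mRNAs 1 family was called in the second. Of all repeat families, 19.9% were called larger and 0.871% smaller in the second with TMM scaling.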

How the results depend on the processing

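The counts of called families in the 2 comparisons with no call, uninduced lines and Control induction, were 0 under every alternative. Without the replicate block the calls were 14, 28, 27, 42 and 11 from induction to 24 h, 11 for Activator induction, and 8 and 6 for the contrasts of changes; the numbers did not pair the samples by the rule used. With mitochondrial scaling the calls were 43, 74, 77, 47 and 5 from induction to 24 h, 79 for Activator induction and 1 for the change to 24 h, and by gene library size the last was 5. A log2 limit of 1 left 7, 10, 5, 9 and 4 calls from induction to 24 h, 5 for Activator induction, and 4 and 3 for the contrasts of changes, by its construction. A fit to the compared libraries alone gave 8 at induction, with fewer libraries.

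Leaving out single libraries gave 12 to 20 calls at induction and, in order of the 4 later times, 24 to 32, 24 to 36, 42 to 45 and 8 to 21. The ranges were 8 to 13 for the change on induction and 3 to 9 for the change to 24 h, and 10 to 16 for Activator induction. Leaving out a replicate number in all groups, chosen after seeing the data, gave 12 to 31, 18 to 34, 25 to 31, 42 to 47, 6 to 17, 4 to 10 and 2 to 9, and 10 to 13 for Activator induction.

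With mitochondrial scaling these named families turned below 0: at induction Lx8 (-0.33), Lx9 (-0.34), L1_Mus3 (-0.13), Lx7 (-0.14), L1_Mus1 (-0.25) and MusHAL1 (-0.066); at 12 h Lx8 (-0.22), Lx9 (-0.19), L1_Mus3 (-0.020), Lx7 (-0.11), L1_Mus1 (-0.12) and MusHAL1 (-0.036); at 24 h Lx8 (-0.032) and Lx7 (-0.0021). By gene library size Lx8 (-0.030) and Lx9 (-0.040) did so at induction. With DESeq2 or its size factors L1ME4a (0.12) and HAL1 (0.14) turned above 0 at 12 h, and L1M3d (0.0173 and 0.0175) and HAL1 (0.053) at 24 h; with the compared libraries alone L1M3d (0.012) and HAL1 (0.048) did at 24 h. With libraries left out, Lx8 ranged from -0.092 to 0.23, Lx9 from -0.13 to 0.24 and L1_Mus1 from -0.022 to 0.33 at induction, HAL1 from -0.10 to 0.061 and L1ME4a from -0.12 to 0.022 at 12 h, and L1M3d from -0.18 to 0.097, L1ME4a from -0.18 to 0.043 and HAL1 from -0.10 to 0.083 at 24 h. The causes were not tested. Of the values of named families, 854 kept direction and side of the threshold, 45 lost the call, 20 gained it and 50 turned. Low counts limit L1M2a1 and HAL1_SS.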
